A study of Mus musculus with 6 samples.

Results

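The 4 Tcf/Lef genes encode the DNA-binding partners of β-catenin, and the 4 Tle genes encode the Groucho corepressors that those partners carry when β-catenin is low. These 8, Tcf7, Lef1, Tcf7l1, Tcf7l2, Tle1, Tle2, Tle3 and Tle4, were taken by name from 41126 genes measured by RNA-seq in mouse dermal fibroblasts. All 8 passed the filter on low counts, Tcf7 and Lef1 through the libraries with stabilised β-catenin. In fibroblasts with stabilised β-catenin, Tcf7 rose 24.5-fold, Lef1 6.76-fold and Tle4 2.40-fold, whereas Tle2 fell by 1.31 on the log2 scale. Tle1 rose 1.84-fold with an adjusted p under 0.05, and Tcf7l1, Tcf7l2 and Tle3 did not pass the test. Tcf7 and Lef1 together made up 5.86% ± 1.01 of the summed Tcf/Lef FPKM in Control fibroblasts and 62.4% ± 8.21 in GOF fibroblasts (SD, n = 3 each). FPKM, fragments scaled to transcript length and library size, is a level per length. Comparisons and sums between genes made with it depend on how length is taken into account.

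The series compared gain-of-function (GOF) cultures with controls, 3 libraries each, of ventral dermal fibroblasts from CD1, C57Bl6 mice at postnatal day 4. Per the labels, GOF cultures were Ctnnb1{delta}ex3/+ with AdCre, an adenovirus carrying Cre recombinase, and Control cultures were +/+ with AdGFP. In the study's methods the controls carry the same Ctnnb1 allele, and the labels' treatment text gives AdCre at 366 to 500 MOI for 6 h for every culture, so the sources differ on both points. The 6 h are the time of infection, and the study sequenced RNA days after it. Loss of exon 3 removes the sites that mark β-catenin for degradation. Virus and the state of the β-catenin allele thus changed together, and their effects cannot be told apart. The number that opens each sample title was taken as the animal, which gives 4 animals. Animal 9845 gave Control 2 and GOF 0, animal 9852 gave Control 0 and GOF 2, and animals 9844 and 9843 gave Control 1 and GOF 1. On this reading, cultures of the same animal share its inherited genotype, so Control 2 and Control 0 cannot differ in it from GOF 0 and GOF 2. For these pairs the animals go with the study's methods, and for Control 1 the sources remain apart. The p-values measure the spread between these cultures, of which some share an animal.

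Tcf/Lef proteins bind their sites in DNA whether or not Wnt signals are present. Without a signal they hold Groucho proteins, which recruit histone deacetylases and keep the target gene off. When β-catenin accumulates it replaces Groucho on the Tcf/Lef protein and brings in coactivators. Tcf7 and Lef1 are known mostly as activators and as Wnt targets themselves, Tcf7l1 is known mostly as a repressor, and Tcf7l2 can act either way. Shorter Tcf7 and Lef1 proteins made from internal start sites lack the part that binds β-catenin, and values per gene do not separate them from the long forms. In skin, Lef1 is known from the dermal papilla and the hair matrix, and Tcf7l1 from hair follicle stem cells.

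Start sites of the 8 genes given by RefSeq on GRCm38.p6 were searched for the core letters that Tcf/Lef proteins bind. Each window ran from 250 bases before to 50 bases after the start site. Both strands were searched for 4 motifs of 7 letters, of which none contains another. The first was CTTTGAT, held by 3.73% of the windows of all genes, and the second CTTTGTT, held by 5.85%. The third was CTTTGAA, held by 5.14%, and the fourth CTTTGTA, held by 3.63%. Of 14 windows, at start sites of all 8 genes, 2 held a match, and 16.9% of the 32851 windows of all genes held any of the 4. The 3 windows shown are both that held a match and that of the outermost Tcf7 start site searched, which held none of these letters. Tcf7 was chosen as the gene with the largest change. This Tcf7 window holds an ATG and reads on as the start of the long Tcf7 protein, which binds β-catenin. Transcripts that encode the long form start before this ATG, and sequence further upstream was not searched. The absence of a match in Tcf7 thus does not describe the promoter of the long form. In each window shown the matched letters are in capitals, and the sequence is written 5′ to 3′ on the strand of the gene.
Tcf7 (chr11:52282965-52283264, minus strand): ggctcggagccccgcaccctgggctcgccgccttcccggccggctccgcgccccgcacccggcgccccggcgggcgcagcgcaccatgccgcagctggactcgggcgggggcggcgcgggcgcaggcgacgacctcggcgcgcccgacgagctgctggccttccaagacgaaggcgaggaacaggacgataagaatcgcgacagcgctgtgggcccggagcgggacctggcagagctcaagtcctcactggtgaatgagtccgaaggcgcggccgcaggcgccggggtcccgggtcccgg
Lef1 (chr3:131156044-131156343, plus strand): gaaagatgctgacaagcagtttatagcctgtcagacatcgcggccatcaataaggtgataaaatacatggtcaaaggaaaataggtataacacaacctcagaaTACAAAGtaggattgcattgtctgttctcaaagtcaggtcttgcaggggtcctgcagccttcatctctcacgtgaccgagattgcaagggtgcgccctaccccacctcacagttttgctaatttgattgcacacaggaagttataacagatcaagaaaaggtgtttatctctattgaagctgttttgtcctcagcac
Tcf7l2 (chr19:55895071-55895370, plus strand): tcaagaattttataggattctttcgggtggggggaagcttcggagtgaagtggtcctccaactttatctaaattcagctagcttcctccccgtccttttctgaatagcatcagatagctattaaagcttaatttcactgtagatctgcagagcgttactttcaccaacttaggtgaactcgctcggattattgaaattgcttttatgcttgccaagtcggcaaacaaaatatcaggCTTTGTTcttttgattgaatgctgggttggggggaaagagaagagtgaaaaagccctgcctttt
The Lef1 match lies on the opposite strand, 147 bases upstream of an internal start site that is 45.8 kb into the gene. The Tcf7l2 match lies 14 bases upstream of an internal start site 154 kb into the gene. Both windows lie in introns of the annotated gene and share no base with its annotated exons. A match is a description of these letters only, and the remaining windows of Lef1 and Tcf7l2 held none.

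The libraries held 35980831 to 42834467 fragments in the all-gene table. Axin2, a feedback gene of the pathway, was at 0.136 to 0.177 FPKM in Control and at 14.4 to 19.2 FPKM in GOF libraries, with no overlap between the groups. Of 12 Wnt target genes listed as a readout, 9 were called higher and 0 lower. Sp5, Dkk1, Rnf43 and Notum of these had at most 0, 2, 7 and 8 fragments per Control library. They passed the filter on low counts through the GOF libraries. A gene was called where the edgeR quasi-likelihood test gave a Benjamini-Hochberg adjusted p under 0.05 over all genes tested and the fold change exceeded 2. Of 15462 genes tested, 12.3% were called, 6.69% higher and 5.64% lower in GOF, and the median log2 fold change of all genes was -0.02. Among the 8 Tcf/Lef and Tle genes 4 were called, 3 higher (Tcf7, Lef1 and Tle4) and 1 lower (Tle2). Tcf7 and Lef1 passed the filter on low counts through their GOF libraries, and a gene that passes so is high in GOF by selection. Without that filter the number called was also 4. An adjusted p under 0.05 at any fold was reached by 5 of the 8, where 21.2% of all genes reached it, 11.1% higher and 10.2% lower. Because these are bulk cultures, fewer cells of a type and less RNA per cell cannot be told apart.

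Tcf7 encodes TCF1, best known from T cells. Its FPKM was 0.0764, 0.0849 and 0.141 in Control 0, 1 and 2, and 2.86, 3.24 and 1.56 in GOF 0, 1 and 2. Every GOF library was above every Control library, and GOF 2 was the lowest of its group. The log2 fold change was 4.61 (SE 0.41, 95% interval 3.65 to 5.57, edgeR adjusted p = 5.49e-04). These values rest on 7 to 15 fragments per Control library and 158 to 309 per GOF library. Within animals the fold was 20.3 in animal 9845 and 20.5 in animal 9852, although the levels of these pairs differed.

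Lef1, the other mostly activating factor, stayed at a low level. It was at 0.0620, 0.0742 and 0.0559 FPKM in Control 0, 1 and 2, and at 0.410, 0.423 and 0.402 in GOF 0, 1 and 2. The groups did not overlap, and the GOF libraries lay close together. The log2 fold change was 2.76 (SE 0.30, 95% interval 2.06 to 3.46, edgeR adjusted p = 0.00118), from 7 or 8 fragments per Control library and 48 to 54 per GOF library. Within animals Lef1 was 7.33-fold higher in GOF in animal 9845 and 6.48-fold higher in animal 9852.

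Tcf7l1 encodes TCF3. It had 0.994, 0.771 and 0.955 FPKM in Control 0, 1 and 2, and 0.528, 0.294 and 0.428 in GOF 0, 1 and 2. All GOF libraries were below all Control libraries, yet the gene was not called, with a log2 fold change of -1.08 (SE 0.40, 95% interval -2.01 to -0.14, edgeR adjusted p = 0.0987). With the replicate block given as an estimated correlation between cultures of 1 animal in limma, chosen after seeing the data, the log2 fold change was -1.12 and the adjusted p 0.0373, past both thresholds. It rested on 54 to 74 fragments per Control library and 19 to 50 per GOF library.

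Tcf7l2 encodes TCF4 and was the most abundant Tcf/Lef gene in Control cultures. Its level there was 1.76, 1.73 and 1.75 FPKM in libraries 0, 1 and 2, the narrowest spread of the 8 genes relative to the mean. In GOF 0, 1 and 2 it was 2.03, 1.15 and 0.916 FPKM, so that GOF 0 was above and the other two below every Control library. The log2 fold change was -0.50 (SE 0.23, 95% interval -1.04 to 0.05, edgeR adjusted p = 0.176). The GOF over Control ratio was 1.16 in animal 9845 and 0.521 in animal 9852, in opposite directions. On normalized CPM, counts scaled to library size and not divided by length, the groups did not overlap, with 6.11 to 6.63 in Control and 3.29 to 5.83 in GOF. The fragments behind 1 unit of FPKM, relative to the median gene of the library, were 1.05 in GOF 0 and 1.26 to 1.35 in the other libraries for Tcf7l2. The part of this in the result was not tested.

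**Figure D1:**
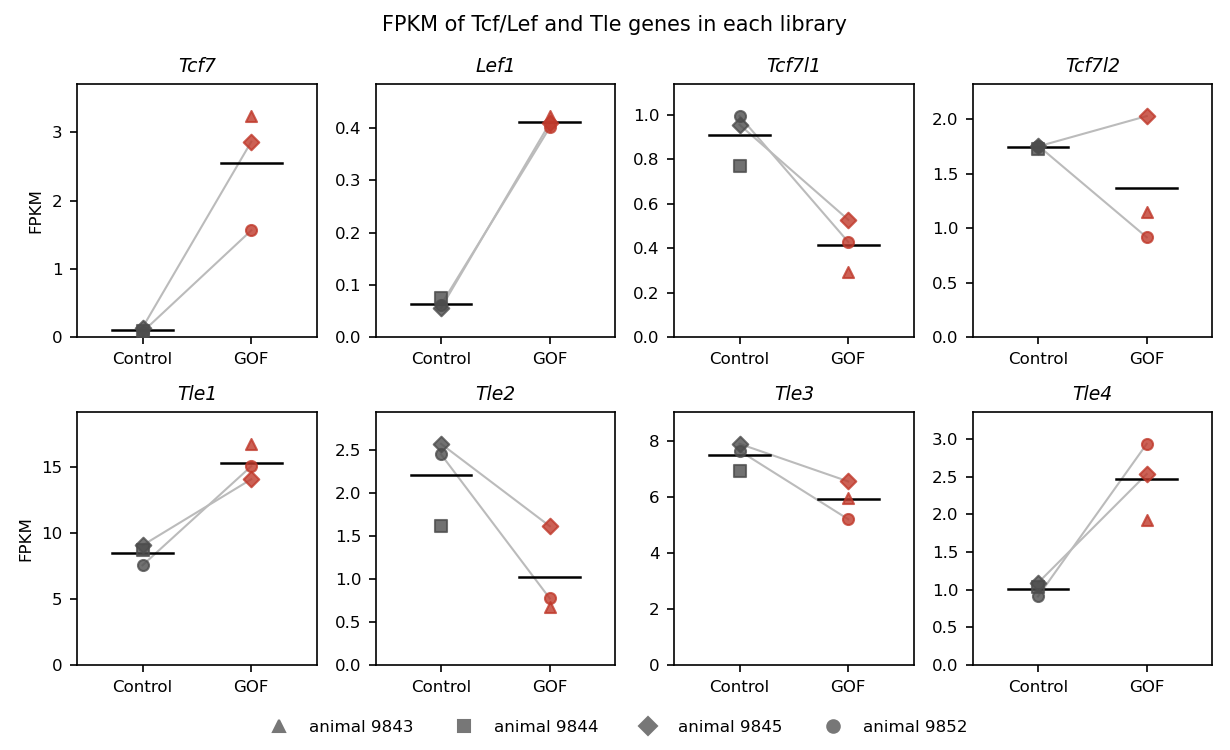
FPKM (y axis, linear, own scale per gene) of the 8 genes in 3 Control (grey) and 3 GOF (red) libraries. The symbol marks the animal, a grey line joins the cultures of 1 animal and the black bar is the group mean. Tcf7, Lef1, Tle1 and Tle4 were higher and Tcf7l1 and Tle3 lower in all GOF libraries, and the groups overlapped for Tcf7l2 and Tle2.

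Among the corepressors, Tle1 had the highest mean FPKM in both groups, although Tle3 was slightly above it in Control 0. It was at 7.55, 8.73 and 9.06 FPKM in Control 0, 1 and 2, and at 14.1, 16.7 and 15.1 in GOF 0, 1 and 2. The groups were well apart, and the log2 fold change of 0.88 (SE 0.15, 95% interval 0.52 to 1.23, edgeR adjusted p = 0.00728) was under the fold threshold. Within animals the rise was 1.55-fold in animal 9845 and 1.99-fold in animal 9852.

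Tle4, which like Tle1 encodes a full-length Groucho protein, had 0.910, 1.04 and 1.09 FPKM in Control 0, 1 and 2, and 2.54, 1.93 and 2.94 in GOF 0, 1 and 2. The lowest GOF library was above the highest Control library, and the log2 fold change was 1.26 (SE 0.18, 95% interval 0.84 to 1.68, edgeR adjusted p = 0.00341). Within animals it was 2.33-fold higher in GOF in animal 9845 and 3.23-fold higher in animal 9852.

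Tle2 was the 1 gene of the 8 called lower. Its FPKM was 2.45, 1.61 and 2.58 in Control 0, 1 and 2, and 1.62, 0.680 and 0.775 in GOF 0, 1 and 2. Control 1 and GOF 0 were at nearly the same level, so the groups overlapped on this scale. On normalized CPM they did not, with 3.95 to 4.61 in Control and 1.41 to 2.26 in GOF, and edgeR, which uses the counts, gave a log2 fold change of -1.31 (SE 0.26, 95% interval -1.91 to -0.70, adjusted p = 0.0118). With limma on log2(FPKM + 0.1) the log2 difference was -1.11 and the adjusted p 0.0570, which ended the call. Of the 8 genes Tle2 had the most uneven ratio of fragments to FPKM, whose highest library was 1.70 times the lowest, against 1.13 for the median gene. Control was 1.59 times GOF in animal 9845 and 3.17 times GOF in animal 9852.

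Tle3 was at 7.66, 6.95 and 7.91 FPKM in Control 0, 1 and 2, and at 6.57, 5.99 and 5.21 in GOF 0, 1 and 2. The groups did not overlap, and the log2 fold change was -0.40 (SE 0.14, 95% interval -0.72 to -0.08, edgeR adjusted p = 0.0758), short of the threshold. Over all 8 genes, FPKM did not overlap between the groups for 6, where 39.5% of all tested genes did not, and normalized CPM did not overlap for 8, where 40.6% of all tested genes did not. A lack of overlap was thus common among all genes, and it did not by itself make a call.

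**Figure D2:**
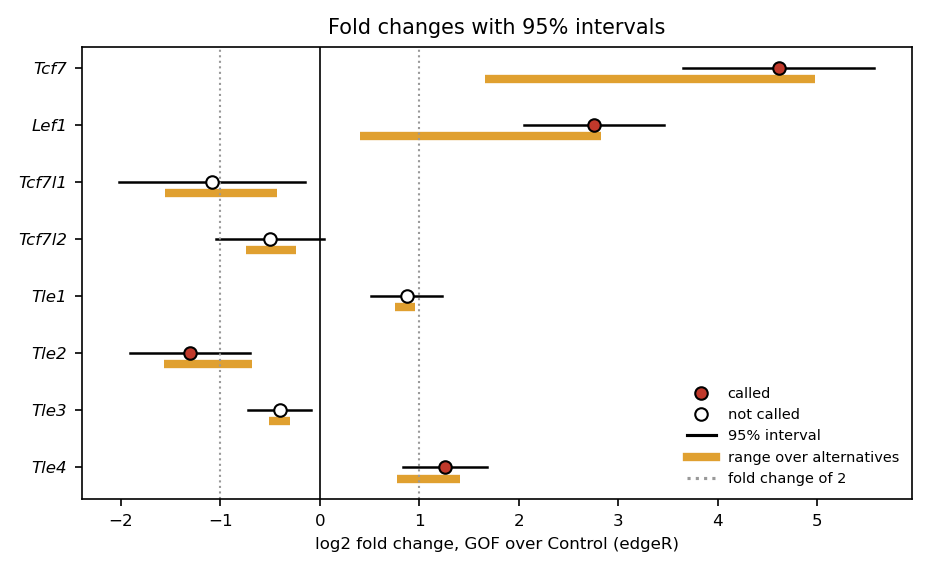
The log2 fold change, GOF over Control, of each gene from edgeR (x axis), with its 95% interval as a black line and, in amber, the range over the alternatives of processing. Filled points are called. The interval lies above 0 for Tcf7, Lef1, Tle1 and Tle4, below 0 for Tcf7l1, Tle2 and Tle3, and spans 0 for Tcf7l2 (-1.04 to 0.05).

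By level per length, Control fibroblasts held Tle1 (8.44 ± 0.794 FPKM, SD, n = 3) and Tle3 (7.51 ± 0.501) first. Then followed Tle2 (2.22 ± 0.524), Tcf7l2 (1.74 ± 0.0150), Tle4 (1.01 ± 0.0932), Tcf7l1 (0.907 ± 0.119), Tcf7 (0.101 ± 0.0352) and Lef1 (0.0640 ± 0.00933). Of these neighbours Tle1 and Tle3, Tle2 and Tcf7l2, and Tle4 and Tcf7l1 overlapped between libraries. In GOF fibroblasts the order was Tle1 (15.3 ± 1.36), Tle3 (5.92 ± 0.679), Tcf7 (2.56 ± 0.879), Tle4 (2.47 ± 0.510), Tcf7l2 (1.36 ± 0.586), Tle2 (1.02 ± 0.516), Tcf7l1 (0.416 ± 0.118) and Lef1 (0.412 ± 0.0110). There Tle1 and Tle3 were separate, the genes from Tcf7 to Tle2 overlapped their neighbours, and Tcf7l1 overlapped Lef1. By its mean Tcf7 was the seventh of the 8 genes in Control and the third in GOF.

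The groups differed in the makeup of the Tcf/Lef family by more than the spread between libraries. Tcf7 was 3.57% ± 1.16 of the summed Tcf/Lef FPKM in Control and 53.3% ± 8.84 in GOF (SD, n = 3). Lef1 was 2.29% ± 0.450 and 9.15% ± 2.66. The share of Tcf7l2 was 62.0% ± 2.58 in Control and 28.3% ± 6.15 in GOF, and that of Tcf7l1 was 32.1% ± 2.78 and 9.24% ± 3.59. No share overlapped between the groups, and each gave p = 0.1 in a two-sided exact permutation test, the smallest that 3 against 3 libraries allow. The shares of a library add up to the whole, so these are not separate results. A higher share of Tcf7 lowers the others whatever their level, and the FPKM of Tcf7l2 itself overlapped between the groups.

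Tcf7 and Lef1 together held 4.79%, 5.98% and 6.79% in Control 0, 1 and 2, and 56.2%, 71.7% and 59.4% in GOF 0, 1 and 2. The difference was 56.6 percentage points, and 68.5 with fragments divided by exon length in place of FPKM. The summed Tcf/Lef level was 2.89, 2.66 and 2.90 FPKM in Control 0, 1 and 2, and 5.83, 5.11 and 3.31 in GOF 0, 1 and 2. GOF 2 was thus close to the Control libraries in the sum, although its Tcf7 and Lef1 share lay between those of the other GOF libraries. The summed level of Tcf7l1 and Tcf7l2 was 2.65 ± 0.134 FPKM in Control and 1.78 ± 0.672 in GOF (SD, n = 3), with overlap (exact permutation p = 0.2).

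The summed level of the 4 Tle genes was 19.2 ± 1.27 FPKM in Control and 24.7 ± 0.685 in GOF (SD, n = 3, exact permutation p = 0.1). Within it Tle1 went from a share of 44.0% ± 3.49 in Control to 61.9% ± 4.73 in GOF, and Tle4 from 5.29% ± 0.390 to 10.0% ± 2.34. Tle3 had 39.2% ± 1.82 and 24.0% ± 2.39, and Tle2 had 11.5% ± 2.36 and 4.15% ± 2.08. The groups did not overlap for any of these shares, each at the smallest possible exact permutation p of 0.1, and these shares too are tied to each other.

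**Figure D3:**
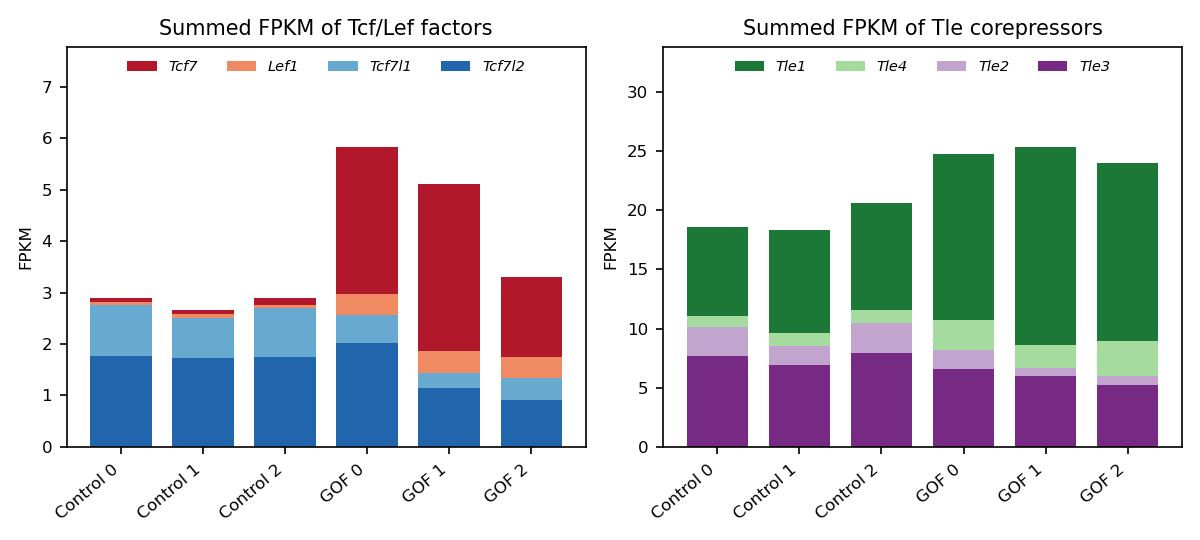
Stacked FPKM (y axis, from 0) of the 4 Tcf/Lef genes (left) and the 4 Tle genes (right) in each library. Tcf7 forms 53.3% of the GOF Tcf/Lef bars on average and 3.57% of the Control bars, and Tle1 forms 61.9% and 44.0% of the Tle bars.

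Corepressor level per Tcf/Lef level was 6.43, 6.90 and 7.11 in Control 0, 1 and 2, and 4.25, 4.96 and 7.24 in GOF 0, 1 and 2. GOF 2 was above every Control library and the other two were below, so the difference of -1.33 did not exceed the spread (exact permutation p = 0.4). It was -0.71 without GOF 0 and -2.21 without GOF 2. With fragments divided by exon length the ratio was 5.48 ± 0.798 in Control and 2.976 ± 1.0035 in GOF (SD, n = 3) without overlap (exact permutation p = 0.1), so the overlap of the groups depended on how length was taken into account.

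Ratios within the families, chosen after their values were seen, are given as descriptions. Tcf7 over Tcf7l2 was 0.0578 ± 0.0201 in Control and 1.98 ± 0.739 in GOF, and Lef1 over Tcf7 was 0.694 ± 0.260 and 0.177 ± 0.0695 (SD, n = 3). Tle1 over Tle3 was 1.13 ± 0.136 in Control and 2.61 ± 0.406 in GOF, and Tle4 over Tle2 was 0.480 ± 0.146 and 2.73 ± 1.12. No ratio overlapped between the groups.

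Partners of these proteins were counted in the same way. Of 61 listed partner genes 49 were tested and 3 were called by edgeR, 6.12% where 12.3% of all genes were, 2 higher and 1 lower, with a median log2 fold change of -0.03. The count was 5 without Control replicate 2, 1 with a minimum FPKM of 1 in 3 libraries and 0 with limma on log2(FPKM + 1). The listing was made with earlier results of these data known.

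Of 6 genes for β-catenin and the adaptors that bind it, 1 was called, 16.7% where 12.3% of all genes were, and 1 call in so few genes is near that background. Pygo1, a PHD finger protein that joins the β-catenin complex through Bcl9, was at 1.4997, 2.17 and 2.31 FPKM in Control 0, 1 and 2, and at 0.790, 0.757 and 0.769 in GOF 0, 1 and 2, a log2 fold change of -1.36 (SE 0.19, edgeR adjusted p = 0.00279). The GOF libraries lay close together below all Control libraries. Ctnnb1, named after its value was seen, was at 267 ± 16.3 FPKM in Control and 263 ± 28.8 in GOF (SD, n = 3, log2 fold change -0.05, edgeR adjusted p = 0.844). Its summed mRNA does not show the removal of exon 3 or the amount of β-catenin protein. Ctnnb1 FPKM per summed Tcf/Lef FPKM was 95.1 ± 10.6 in Control and 58.4 ± 16.3 in GOF, without overlap (exact permutation p = 0.1).

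Of 12 coactivator and chromatin genes 0 were called by edgeR and 0 by DESeq2, where 12.3% of all genes were called by edgeR, and 3 had an unadjusted p under 0.05. The smallest adjusted p belonged to Parp1, which binds damaged DNA and is also reported as a Tcf coactivator, at 15.8 ± 1.42 FPKM in Control and 11.1 ± 0.625 in GOF (log2 fold change -0.54, edgeR adjusted p = 0.0102). Next came Tbl1xr1, a subunit of the NCoR corepressor that exchanges corepressors for coactivators, with a log2 fold change of -0.55 (edgeR adjusted p = 0.0564). Neither reached a fold of 2.

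Of 12 other corepressors and short Groucho proteins, 11 were tested and 0 were called by edgeR or DESeq2, beside 12.3% of all genes by edgeR, and 3 had an unadjusted p under 0.05. Tle6, a short Groucho family member, was at 11.8, 10.6 and 9.16 FPKM in Control 0, 1 and 2, and at 5.68, 6.89 and 4.74 in GOF 0, 1 and 2, without overlap (log2 fold change -0.86, edgeR adjusted p = 0.0116). Hic1, a repressor that can sequester Tcf factors, had the same log2 fold change of -0.86 (edgeR adjusted p = 0.0255). Tle5, listed as Aes and named after its value was seen, lacks the repressing C-terminal region of the Groucho protein, and it was far more abundant than Tle1 to Tle4, at 172 ± 13.0 FPKM in Control and 167 ± 8.58 in GOF (SD, n = 3, log2 fold change -0.09, edgeR adjusted p = 0.646). Tle5 FPKM per summed Tle1 to Tle4 FPKM was 8.98 ± 0.878 in Control and 6.78 ± 0.438 in GOF, without overlap (exact permutation p = 0.1). Tle5, Tle2 and Tle6 lie side by side on chromosome 10, with 8198 bases between Tle5 and Tle2 and 58 bases between the facing 3′ ends of Tle2 and Tle6. The study's methods name standard settings for counting and do not give the strand option, so fragments at these facing ends may be uncertain.

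Of 8 inhibitors and modifiers of the complex 0 were called by edgeR or DESeq2, again beside 12.3% of all genes by edgeR, and 1 had an unadjusted p under 0.05. Nlk, a kinase that phosphorylates Tcf/Lef proteins, was at 3.95 ± 0.888 FPKM in Control and 6.75 ± 1.04 in GOF (SD, n = 3), with a log2 fold change of 0.80 (edgeR adjusted p = 0.0226) under the fold threshold. Ctnnbip1, which blocks β-catenin from binding Tcf, had a log2 fold change of -0.43 (edgeR adjusted p = 0.148).

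Of 23 DNA-binding factors that recruit Groucho 12 were tested and 2 called, both higher in GOF, which is 16.7% and near the 12.3% of all genes. Prdm1, a zinc finger repressor, was low, at 0.0472 ± 0.0327 FPKM in Control and 0.210 ± 0.0618 in GOF (SD, n = 3, log2 fold change 2.58, edgeR adjusted p = 0.00370). It rested on 5 to 10 fragments per Control library and 36 to 54 per GOF library, and passed the filter through the GOF libraries. Runx1 and Runx2, named after their values were seen, each had a log2 fold change of 0.80 (edgeR adjusted p = 0.0119 and 0.0417), under the fold threshold.

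**Figure D4:**
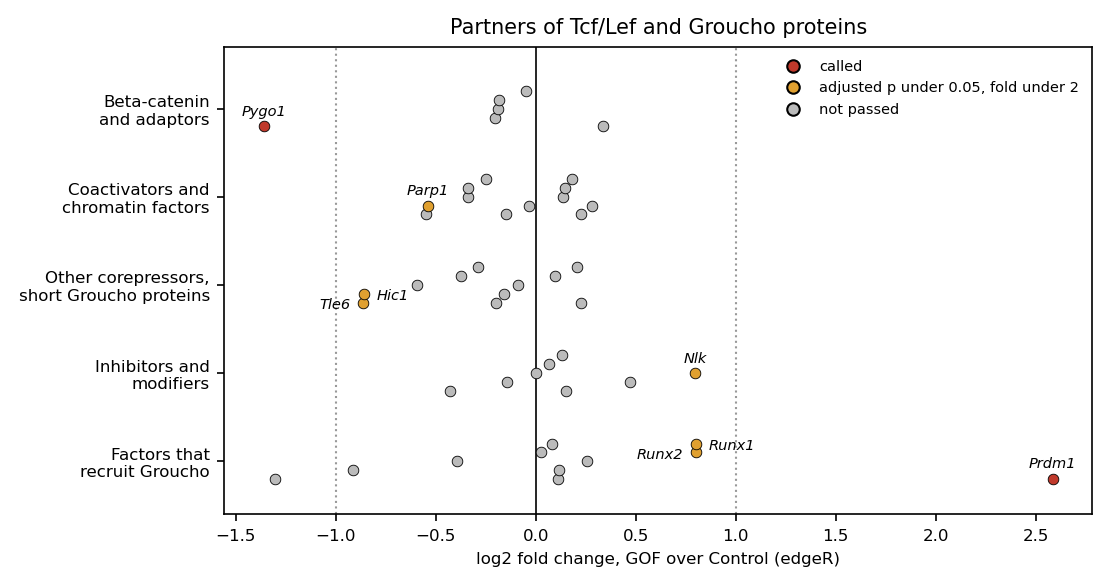
The log2 fold change (x axis, edgeR, GOF over Control) of tested partner genes in 5 groups by role, with 1 gene left out. Each point is a gene, and dotted lines mark a fold of 2. Red points are called (Pygo1 and Prdm1), amber points have an adjusted p under 0.05 and a smaller fold, and grey points did not pass.

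For each called gene, protein-coding genes with the most similar pattern over the 6 libraries were found by the root-mean-square distance between centred log2 CPM. Those nearest to Tcf7 were Slco4a1 (distance 0.1004), Tac1 (0.228) and Tcim (0.264), and those nearest to Lef1 were Rnf128 (0.125), Slc24a2 (0.178) and Fjx1 (0.179). Nearest to Tle2 were Cdkn2c (0.113), Samd14 (0.115) and Sertad4 (0.148), and nearest to Tle4 were Map6 (0.0432) and Robo1 (0.0549). The distances are descriptions over 6 libraries, in which all these patterns are led by the difference between the groups.

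Several annotated genes overlap the 8 genes. The non-coding gene Gm26551 runs into Tcf7 on the same strand without sharing exon bases, and had 0, 0 and 1 fragments in Control 0, 1 and 2, and 14, 10 and 12 in GOF 0, 1 and 2. A630014C17Rik, antisense to Tcf7 and sharing no exon bases with it, had 1, 1 and 2 fragments in Control and 9, 13 and 15 in GOF. Both loci thus held more fragments in each GOF library, at a small part of the Tcf7 counts. Gm26551 passed the filter through its GOF libraries and was called (edgeR adjusted p = 0.00487). It was at least 3.84-fold higher in GOF when Control is set at 3 fragments per library. A630014C17Rik was below the filter for a test. Ppnr, within an intron of Tcf7l2, had 12, 36 and 37 fragments in Control and 25, 9 and 12 in GOF libraries (log2 fold change -0.90, edgeR adjusted p = 0.254). Antisense genes share exon bases with Tcf7l1 (Gm15401, 2 to 14 fragments per library), Tle1 (Gm11250, 0 to 7) and Tle2 (Gm15917, 0 in every library), and Gm15402, antisense to Tcf7l1, had 0 to 2. Gm43352, which shares exon bases with Lef1, Gm42449 within Lef1, and Gm37969, Gm38114, Gm38320 and Gm37736 within Tcf7l1 were not analysed here. The libraries were stranded, but with the strand option of the counting not given, it is not known that reads of a gene and its antisense partner were told apart.

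The labelled cell type was checked against marker lists, because Tcf7 and Lef1 are also genes of T cells and hair. The 10 dermal fibroblast markers summed to 3180 to 4193 FPKM in Control and 2660 to 3301 in GOF. Their members did not move together: without overlap between the groups, 1 was higher in GOF and 3 were lower. For comparison, 39.5% of all tested genes did not overlap. Vim, which is not particular to fibroblasts, was at 719 to 866 FPKM in Control and 1204 to 1506 in GOF. Col1a2, Dcn and Fbn1 were lower (log2 fold change -1.18, -1.67 and -1.51, edgeR adjusted p = 0.0375, 0.00584 and 0.0386). The 9 T cell markers summed to 1.30 to 2.31 FPKM in Control and 1.16 to 1.98 in GOF, with 8 of 9 under 1 FPKM everywhere. Trac, a T cell receptor gene, made most of that sum in every library, at 0.897 to 1.70 FPKM. Lck reached 0.516 FPKM, and Cd3e, also a defining marker, was the only 1 of the 9 at 0 in every library. The 9 keratinocyte and hair matrix markers summed to 0.500 to 0.707 FPKM in Control and 2.97 to 6.88 in GOF. Dsp, a desmosome gene, made most of that sum, at 2.39 to 6.36 FPKM in GOF, and Krt14, a defining keratin, was listed at 0 in 5 libraries and at 0.0235 FPKM in GOF 2. The 5 skeletal muscle markers summed to 22.7 to 26.7 FPKM in Control and 137 to 171 in GOF, nearly all of it Acta1, with 4 of 5 under 1 FPKM. Ranges in Control and GOF were 10.8 to 20.0 and 8.72 to 25.3 FPKM for 6 macrophage markers, and 4.32 to 4.47 and 2.68 to 6.54 for 5 endothelial markers. They were 10.5 to 12.9 and 5.67 to 10.1 for 7 Schwann cell and melanocyte markers, and 41.9 to 43.4 and 27.8 to 61.0 for 5 pericyte and smooth muscle markers. The part of the fibroblast, keratinocyte and muscle markers in the Tcf/Lef and Tle results was not tested.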

How the data were processed

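Total RNA from 3 Control and 3 GOF cultures was sequenced as stranded libraries, mapped to mm10 with TopHat and quantified with Cuffdiff, as the study's methods and the submitters' processing notes say. The estimated counts used here are fragments per gene and library that the authors deposited without normalization, and 4.95% were not whole before rounding. The FPKM values were deposited by the authors after scaling by length and between libraries. Per-library values in 5 other columns were left aside. Of 41126 genes, 32 whose estimate failed were left out, and 97.9% of identifiers matched GENCODE M21 on GRCm38, the source of symbols and coordinates.

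The counts were normalized by TMM, filtered with filterByExpr and tested by quasi-likelihood in edgeR 4.0.16 under R 4.3.3, with Benjamini-Hochberg adjustment over 15462 genes. A gene was called at an adjusted p under 0.05 and a fold over 2, and SEs are the log2 fold change divided by the square root of its F. Shares and ratios were compared by exact permutation. Alternatives used limma 3.58.1, DESeq2 1.42.0, other normalizations and filters, replicate blocks and each library left out. Files were read with version 1.17.8 of data.table, and plots drawn with matplotlib 3.10.9.

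The rule named the 8 genes, every called partner of a group or else the 2 with the smallest adjusted p, the 3 nearest profiles per called gene, overlapping genes and Axin2, and 2 of the genes so named are not given here. Members and lists were chosen with earlier results of these data known. Deviations from group means correlated at 0.46 and 0.41 between cultures of 1 animal. Between cultures of equal label number they correlated at -0.41, 0.05 and -0.44. The deviations of the 3 libraries of a group are tied, so these values are not independent of each other. They gave no sign that the label numbers pair the cultures, and the animals read from the titles pair only 2 of 3. In simulated counts for 15462 genes, of which 200 were given a log2 change of 2, the edgeR test found 182 of the 200 and wrongly called 3 others. The simulated libraries were independent of each other, unlike cultures that share an animal, and fewer genes changed. These counts check the procedure and are not error rates of the real comparison. Depth was 35980831 to 42834467 fragments per library, and intervals cover the spread between cultures.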

Additional observations from a re-analysis of the deposited data

How the results depend on the processing

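No log2 fold change of the 8 genes reversed in sign under any alternative, and no call was lost when a library was left out. The number of called genes among the 8 stayed at 4 with each library left out (4 to 4), and with a replicate block, whether by animal or by label number, where 3 partners were called each time. The block by animal leaves 1 residual degree of freedom. It was 5 with a correlation of 0.476 between cultures of 1 animal, chosen after seeing the data, which added Tcf7l1. It was 1, Tcf7, with limma on log2(FPKM + 1), which shrinks low genes by construction: there Lef1 differed by 0.41 (adjusted p 0.00274), Tle4 by 0.77 (0.00873) and Tle2 by -0.68 (0.0552). Called partners numbered 1 with a minimum FPKM of 1 in 3 libraries and 0 with limma on log2(FPKM + 1), and 3 to 5 with a library left out, 5 of them without Control replicate 2. Lef1 and Tcf7l1 were not tested under the FPKM minimum. The causes of the other shifts were not tested. Over the alternatives the log2 fold change spanned 1.66 to 4.98 for Tcf7, 0.41 to 2.83 for Lef1, -1.55 to -0.43 for Tcf7l1, with adjusted p of 0.0191 to 0.228, and -1.57 to -0.68 for Tle2. The few Control fragments of Tcf7 and Lef1 limit the precision of their folds.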
